A study of Homo sapiens with 18 samples.

Results

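H3K27ac ChIP-seq was performed on NB4, an established human cell line of acute promyelocytic leukemia (APL) that carries the PML/RARα fusion. Cells received 10 µM maltonis, a synthetic derivative of maltol, during 24 h or no treatment, and 3 biological replicates were made of each condition. The account covers the 6 H3K27ac libraries among the 18 of the series. They were chosen by their mark and not by a value per library, with earlier results of these data known. The other 12 libraries profiled H3K4me3 and H3K9me3 in the same conditions and served here only as landmarks. Each library had its own list of enriched regions, in which enriched windows of 200 bp had been joined, and regions on chromosomes 1 to 22 were used. The lists held between 31417 and 35595 regions, and the reads inside them ranged from 17659587 to 20412339 per library, with overlap between the conditions.

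Histone acetyltransferases place the acetyl group of H3K27ac, and deacetylases remove it. The mark is found at active promoters, beside H3K4me3, and at active enhancers away from them. Long acetylated stretches with many neighbouring enhancers are often found around genes that define a cell's identity. A region shorter in the maltonis lists can have lost signal at its ends, opened inside, or dropped below the threshold of the caller. These outcomes were separated below only in part, since a lost end piece and a trimmed end give the same shorter call. In bulk chromatin, less acetylation of a region per cell and fewer cells carrying the mark there cannot be told apart. Called length is also no measure of total acetylation. The study's mass spectrometry reported an increase of H3K27ac as a whole after the same treatment. No gene annotation of the build of the lists (hg19) was used, so regions are given by position, and the marker genes of promyelocytes were not analysed here.

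The conditions differed before any region was matched. The lowest island score, the caller's measure of enrichment, was 36.2, 39.9 and 39.9 in the untreated lists and 32.7, 30.2 and 27.1 in the maltonis lists (replicates 1, 2 and 3, the order used throughout). By score the maltonis lists reached lower, but by density the lowest region had 18.8, 19.2 and 19.4 reads per kb without and 18.6, 21.8 and 22 with maltonis, so 2 of the 3 treated lists did not. Reads per kb of covered sequence were 89.1, 88.3 and 88.5 without and 97.0, 113.3 and 111.8 with maltonis. The first maltonis library lay between the untreated libraries and the other two in this and in several other measures. Results that a single library decides are given with the value without it.

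H3K27ac covered less of the genome in each maltonis library. Covered length was 214.6, 226.5 and 223.4 Mb in untreated cells and 182.1, 180.1 and 169.2 Mb after maltonis. The conditions did not overlap, and their means of 221.5 ± 6.19 Mb and 177.1 ± 6.93 Mb (SD, n = 3) differed by −44.4 Mb, or −20.03%. An exact two-sided permutation test gave p = 0.1, the smallest value that 3 libraries against 3 allow, so no value per library could pass 0.05 and overlap of the conditions is stated instead. The number of regions, 35595, 34200 and 34041 against 31417, 33797 and 34804, overlapped between the conditions. Mean region width was 6028, 6622 and 6564 bp without and 5795, 5329 and 4862 bp with maltonis, and the median was 4200, 4600 and 4600 bp against 4000, 3600 and 3200 bp. Both were lower in every treated library, so similar numbers of regions were on average shorter. The separation of the medians was not kept when each list was limited to scores of at least 39.9, the highest of the 6 lowest scores, whereas the difference in covered length was then −53.9 Mb.

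By the width a region had in its own list, classes of 5 kb and over covered less in each treated library. A region that shortens also leaves its class, so these classes do not follow the same regions. Regions of at least 10 kb covered 82.6, 96.2 and 94.6 Mb in untreated cells and 68.1, 62.8 and 53.3 Mb after maltonis, a difference of −32.6% without overlap. Regions of 5 to 10 kb held 35.8% of the difference, with 69.1, 73.4 and 71.7 Mb against 58.4, 55.7 and 52.4 Mb. Regions of 10 to 20 kb held another 34.1%. Among the classes with less covered length, that of 20 to 50 kb had the largest difference relative to its size, with 26.5, 31.8 and 31.4 Mb without and 19.1, 18.1 and 15.5 Mb with maltonis (−41.2%). It contained 962, 1154 and 1125 regions in untreated cells and 698, 657 and 566 after maltonis. The widest class, 50 kb and over, had only 53 to 112 regions per library, and its covered length differed by −31.2%.

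Only the classes under 2 kb covered more in each treated library. Regions of 2 to 5 kb covered 58.4, 53.6 and 54.0 Mb in untreated cells and 50.8, 54.9 and 54.0 Mb after maltonis, and the conditions overlapped. Regions of 1 to 2 kb covered 4.37, 3.20 and 3.09 Mb against 4.58, 6.53 and 9.13 Mb. The first untreated and the first maltonis libraries were close in this class, and the lower score floor of the maltonis lists lies in the same direction. The part of that floor in the gain of narrow regions was not tested.

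**Figure D1:**
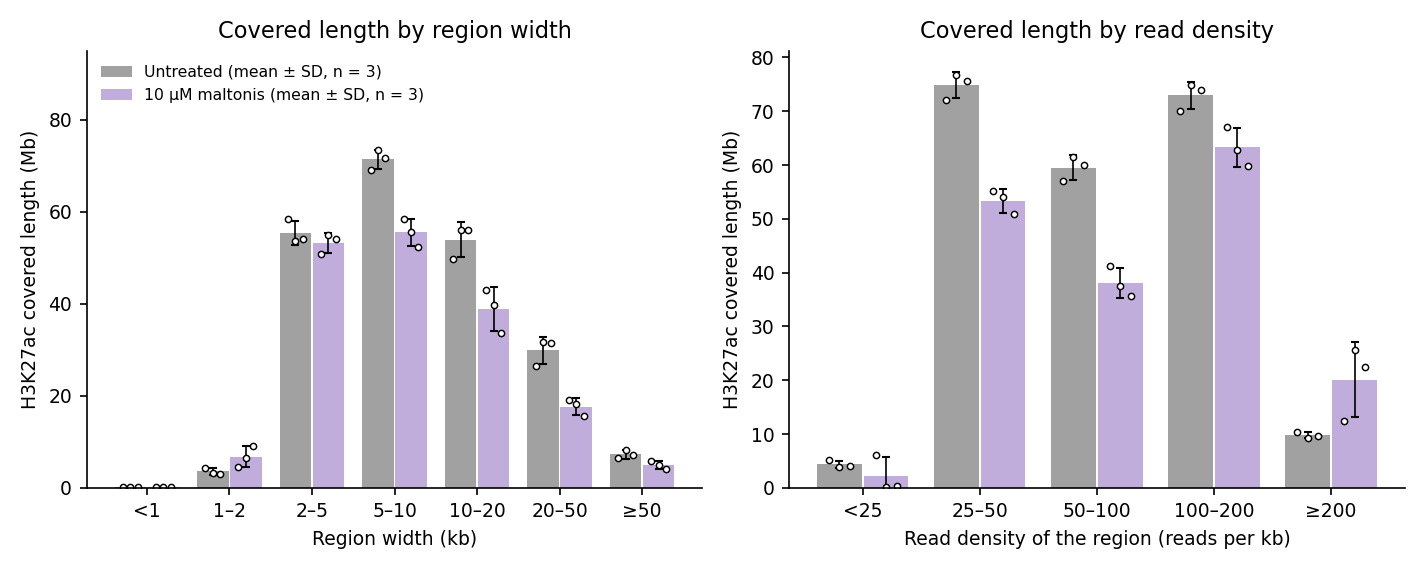
H3K27ac covered length in Mb by width of the region in kb (left) and by its read density in reads per kb (right). Bars are means of 3 libraries with SD and open circles are the libraries; covered length was lower in every maltonis library for widths from 5 kb upwards and for densities from 25 to 200 reads per kb, and higher at 200 reads per kb and over.

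Read density was the number of reads in a region per kb of its width. Regions of 25 to 50 reads per kb covered 72.1, 76.8 and 75.7 Mb in untreated cells and 55.2, 54.1 and 50.9 Mb after maltonis (−28.7%). Regions of 50 to 100 reads per kb covered 57.0, 61.5 and 60.1 Mb against 41.2, 37.5 and 35.6 Mb (−36.0%). Each class accounted for about the same part of the difference, 48.4% and 48.3%, and in neither did the conditions overlap. Regions of 100 to 200 reads per kb added 21.8%, with a difference of −13.2%. The weakest class, under 25 reads per kb, was small and overlapped between the conditions, since the first maltonis library held 6.18 Mb and the other two 0.174 and 0.326 Mb.

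The class of highest density in each list covered more after maltonis. Regions of 200 reads per kb and over covered 10.4, 9.33 and 9.58 Mb in untreated cells and 12.4, 25.6 and 22.5 Mb in treated cells. This class held 13.1%, 11.3% and 11.7% of the reads in regions without and 16.9%, 31.3% and 29.5% with maltonis. The conditions did not overlap, and the first maltonis library was the closest to the untreated ones. With densities scaled to equal reads in regions, the same class covered 10.8, 7.81 and 8.33 Mb against 18.9, 20.5 and 24.3 Mb, and that library no longer stood apart. This scaling gives each list the same reads on its own covered length. Lists with less covered length are thus denser on average by construction, and the scaled values are no separate support for the gain. All regions of at least 100 reads per kb covered 80.4, 84.2 and 83.5 Mb without and 79.5, 88.4 and 82.3 Mb with maltonis, and overlapped.

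Width and density were then combined. Regions of at least 10 kb with 50 to 100 reads per kb covered 25.2, 29.4 and 28.4 Mb in untreated cells and 15.3, 10.3 and 8.67 Mb after maltonis. This difference of −58.8% made up 36.7% of the total. Wide regions under 50 reads per kb differed by a like proportion, −59.2%, and added 15.6%. Wide regions of at least 100 reads per kb covered 48.0, 54.0 and 53.2 Mb against 46.0, 48.1 and 41.6 Mb, which overlapped.

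Among regions under 10 kb, those under 50 reads per kb accounted for 37.6% of the difference. They covered 67.9, 67.9 and 66.8 Mb without and 54.6, 49.8 and 48.2 Mb with maltonis. Their number overlapped between the conditions, but their mean width was 3837, 4187 and 4143 bp in untreated cells and 3542, 3257 and 2920 bp after maltonis. The short, dense regions, under 10 kb with at least 100 reads per kb, covered 32.4, 30.2 and 30.3 Mb against 33.4, 40.3 and 40.7 Mb. They were the one combination of width and density with more covered length in each treated library.

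Regions of the 6 lists were then merged wherever they overlapped by at least 1 bp, which gave 36228 reference regions. Of these, 19504 (53.8%) were called in all 6 libraries and are called shared. In a shared region, the called length of a library is its outer span, from the first to the last called base, minus the gaps between its pieces, so that the difference in covered length divides exactly. Shared regions held 62.0% of the difference. A shorter outer span accounted for −20.5 Mb (46.2%) and longer gaps for −7.00 Mb (15.8%). Of the span difference, −12.4 Mb lay in shared regions with more than 1 piece in at least 1 library. There a lost end piece counts as a shorter span, and a trimmed inner end as gap. Regions called in all 3 untreated and no maltonis libraries numbered 2176, or 6.01% of reference regions, and contributed −7.10 Mb (16.0% of the difference). The 597 regions called only in the 3 maltonis libraries, 1.65% of reference regions, added 1.48 Mb. Regions called in more untreated than maltonis libraries, but not in this strict pattern, were 22.6% of reference regions and contributed −15.3 Mb. The reverse pattern, 12.3% of reference regions, added 4.59 Mb. These divisions follow from the calls and carry no test of their own.

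**Figure D2:**
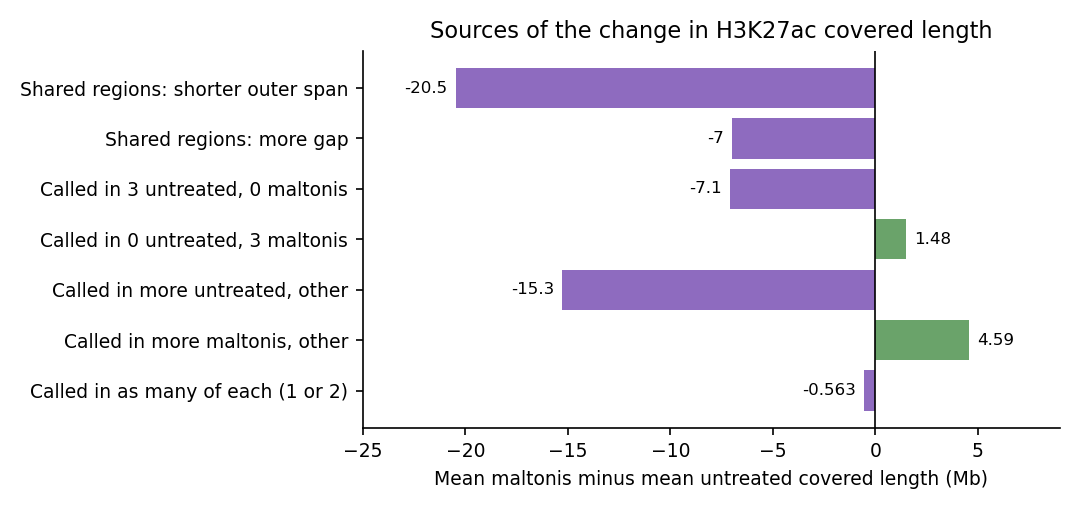
Exact division of the difference in H3K27ac covered length (mean maltonis minus mean untreated, Mb) over shared reference regions and over regions called in only some of the 6 libraries. The shorter outer span of shared regions is the longest bar at −20.5 Mb, and more gap within them adds −7.00 Mb.

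Shared regions had shorter outer spans and more gap inside after maltonis. Their outer span summed to 196.8, 202.9 and 201.7 Mb in untreated cells and 183.1, 181.3 and 175.5 Mb after maltonis. Gaps inside them summed to 11.1, 8.60 and 9.07 Mb without and 14.4, 16.2 and 19.2 Mb with maltonis, and neither measure overlapped between the conditions. Called length was shorter in all 3 maltonis libraries than in any untreated library in 5536 shared regions, 28.4% of those examined, and longer in 750, or 3.85%. The reads in shared regions overlapped between the conditions, with a difference of −0.415%. Their density was 97.8, 97.5 and 97.3 reads per kb in untreated cells and 102.3, 120.4 and 118.2 after maltonis, so similar numbers of reads lay on fewer called bases.

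The share of shared regions that were shorter grew with width, whereas the proportion of length involved became smaller from 2 to 5 kb upwards. In classes fixed by the mean called length over all 6 libraries, covered length differed by −13.8% at 1 to 2 kb and −19.1% at 2 to 5 kb. It differed by −16.6% at 5 to 10 kb and −15.5% at 10 to 20 kb. At 20 to 50 kb it differed by −12.0%, and at 50 kb and over by −6.09%. None of these classes overlapped between the conditions, and under 1 kb the difference was −3.57% with overlap. The fixed classes of 5 to 10 kb and 10 to 20 kb held 18.1% and 16.6% of the total difference. The share of regions that were shorter was 14.5% at a mean called length of 1 to 2 kb, 25.4% at 2 to 5 kb, 27.9% at 5 to 10 kb and 33.7% at 10 to 20 kb. It reached 40.9% at 20 to 50 kb and 40.3% at 50 kb and over, while the share that were longer stayed between 2.63% and 5.40% in all classes. By mean density this share was 32.3% at 25 to 50 reads per kb, 36.4% at 50 to 100, 19.1% at 100 to 200 and 10.7% at 200 and over. Called length differed by −26.9%, −18.6% and −7.59% in the first 3 of these fixed density classes, without overlap. In the last class it was 7.42, 7.59 and 7.62 Mb against 7.63, 7.47 and 7.30 Mb (−0.974%) and overlapped. Reads per kb in that class were 219.9, 220.9 and 218.8 against 230.1, 272.0 and 261.2, without overlap. This difference of 15.7% was near the 16.5% of all shared regions. Regions dense on average over the 6 libraries were thus not longer after maltonis. Their higher density is in reads not scaled for depth, and it was smallest in the first maltonis library. Regions that enter the densest class of a list by a higher density cannot be seen in a fixed class. Wider regions span more windows and offer more places for a call to differ, so these shares describe the classes and are not rates per base.

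Outer span and gaps were divided differently between narrow and wide regions. In shared regions of 2 to 5 kb, outer span differed by −18.8% and gaps overlapped between the conditions. In those of 20 to 50 kb, outer span differed by −4.76%, and gaps were 4.05, 3.16 and 3.35 Mb against 5.67, 6.16 and 7.36 Mb. In the 278 shared regions of 50 kb and over, the span was nearly kept, at −0.932%, whereas gaps were 1.73, 1.28 and 1.35 Mb in untreated cells and 2.39, 2.44 and 3.06 Mb after maltonis. In these long merged regions the difference thus lay mostly between the outer limits. They already held 485.3, 430.9 and 432.7 pieces per 100 regions in untreated cells. Trimmed ends of inner pieces therefore count as gap, and were not told apart from pieces that opened inside.

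Splitting was seen as more pieces per shared region. There were 136.3, 130.5 and 130.8 pieces per 100 shared regions in untreated cells and 137.8, 144.1 and 149.5 after maltonis. The lowest treated library was only just above the highest untreated one. With each list limited to scores of at least 39.9, the difference was 3.04 pieces per 100 in place of 11.2 and the conditions overlapped, and they also overlapped when the reference was merged across distances of up to 1000 bp (10.1). In shared regions of 50 kb and over, the counts were 485.3, 430.9 and 432.7 against 539.6, 611.5 and 686.3 pieces per 100. For regions of 20 to 50 kb they were 275.4, 248.2 and 248.1 against 296.2, 321.3 and 347.5, and neither wide class overlapped.

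Few single regions had more pieces in every treated library. More pieces in each maltonis than in any untreated library were found in 507 shared regions (2.6%), and fewer pieces in 108 (0.554%). In 277 of the 507, each untreated library had 1 piece and each maltonis library at least 2, and the reverse held for 87 regions. The share with more pieces was 0.213% at 2 to 5 kb, 5.25% at 10 to 20 kb, 11.6% at 20 to 50 kb and 21.9% at 50 kb and over.

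**Figure D3:**
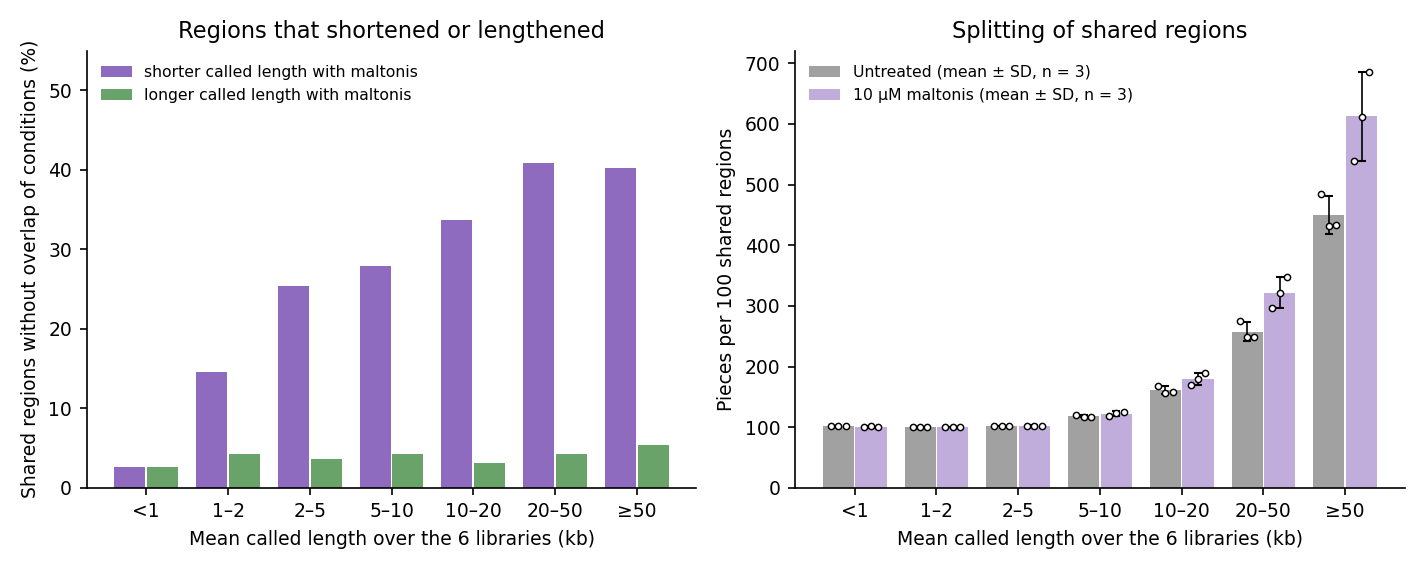
Left: percent of shared H3K27ac regions whose called length was shorter or longer in each maltonis than in any untreated library, by mean called length in kb. Right: pieces per 100 shared regions by mean called length; bars are means of 3 libraries with SD and open circles the libraries, and the excess of pieces after maltonis is largest at 50 kb and over.

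The same contrast appeared when lists were compared in pairs. Of the regions of an untreated list, 21.1% to 24.0% met no region of a maltonis list over the 9 pairs of libraries. Between untreated lists this share was 9.42% to 10.5%, and from a maltonis to an untreated list it was 10.1% to 12.4%. Among untreated regions of at least 10 kb, 39.8% to 51.5% met 2 or more regions of a maltonis list. They met 2 or more regions of another untreated list in 29.5% to 38.9%. The replicate background of splitting was thus high, and the treated pairs lay above it. Among maltonis lists themselves the share was 27.4% to 42.7%, which overlapped the values from untreated to maltonis lists.

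Ends could be followed without gaps in the 11637 shared regions that were 1 piece in each library. At least 1 end lay further in, in every maltonis library, for 2954 of them (25.4%), and at least 1 end lay further out for 707 (6.08%). Of those further in, 2388 were so at 1 end and 566 at both. The mean inward shift was 355 bp at the end with the lower coordinate and 342 bp at the other, with a median of 200 bp at each, which is 1 window of the caller. The typical shift of a region was therefore at the resolution of the lists.

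Windows of 200 bp gave the position of the difference on a common scale. Windows called in 3 untreated and 0 maltonis libraries summed to 15.1 Mb, those called in 0 untreated and 3 maltonis libraries to 2.22 Mb, and those called in all 6 to 117 Mb. Of the untreated-only windows, 43.6% lay at the ends of shared regions and 14.0% inside them. Another 31.6% lay in regions that no maltonis library called, and 10.8% in regions of a mixed pattern. The remaining called sequence, 174 Mb, varied between replicates of the same condition, so most of the called genome did not follow the condition strictly.

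H3K4me3 regions called in all 6 libraries of that mark, 12099 in number and 25.3 Mb in length, served as fixed landmarks for active promoters. H3K27ac covered 97.0%, 97.1% and 97.2% of their windows in untreated cells and 96.2%, 96.5% and 96.2% after maltonis. The conditions did not overlap, and the difference was −0.769 percentage points. Within 2 kb of these landmarks, landmarks included, covered length was 60.3, 61.4 and 61.1 Mb without and 60.4, 59.6 and 58.5 Mb with maltonis. The conditions overlapped there (exact permutation test, p = 0.2), and they were apart without the first maltonis library (−1.90 Mb) or without the first untreated library (−1.77 Mb). These landmarks had to be called in the treated H3K4me3 libraries too. With H3K4me3 regions called in at least 2 of 3 libraries of either condition, the near difference was −4.25 Mb in place of −1.44 Mb, without overlap, and that beyond 10 kb was −27.4 Mb in place of −34.5 Mb.

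Away from H3K4me3 the difference was large, but distance and read density went together. Of shared regions, 4.23% at 25 to 50 reads per kb touched constant H3K4me3, against 93.7% at 100 to 200. Whether distance mattered apart from density was not tested. Covered length from 2 to 10 kb was 47.4, 50.4 and 49.7 Mb in untreated cells and 42.6, 41.4 and 38.1 Mb after maltonis (−17.2%). From 10 to 50 kb it was 65.4, 70.6 and 69.1 Mb against 50.8, 50.6 and 46.4 Mb (−27.9%). Beyond 50 kb it was 41.5, 44.1 and 43.5 Mb against 28.2, 28.5 and 26.2 Mb (−35.8%). None of these classes overlapped between the conditions, and sequence more than 10 kb away accounted for −34.5 Mb. The share of covered length more than 10 kb away was 49.8%, 50.7% and 50.4% without and 43.4%, 43.9% and 42.9% with maltonis. This compares sequence beyond 10 kb with the rest directly, and the conditions were apart (exact permutation test, p = 0.1, the smallest possible). The share was computed with constant H3K4me3 only, and not with H3K4me3 called in at least 2 of 3 libraries.

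**Figure D4:**
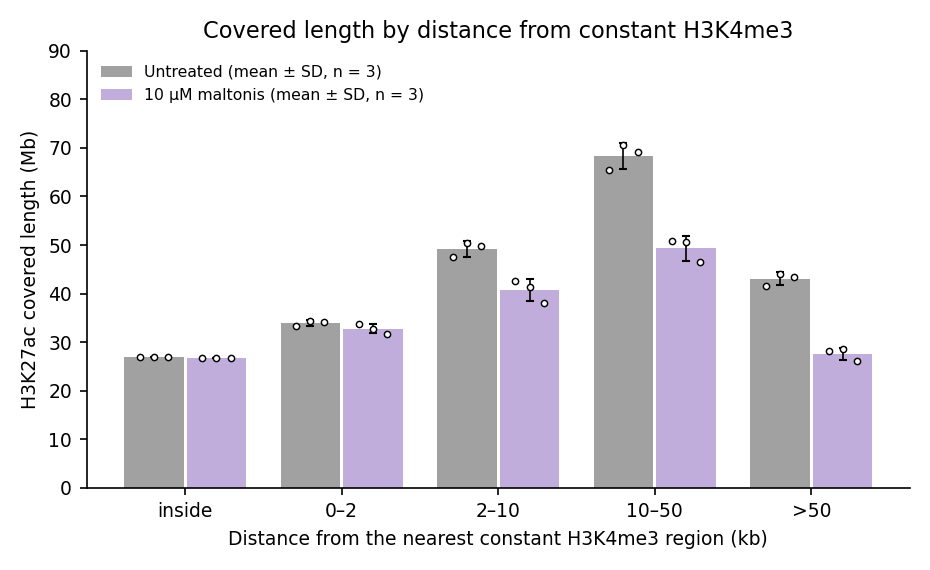
H3K27ac covered length in Mb by distance in kb from the nearest H3K4me3 region called in all 6 H3K4me3 libraries. Bars are means of 3 libraries with SD and open circles the libraries; the conditions are close inside and up to 2 kb from H3K4me3 and apart from 2 kb outwards, with the largest relative difference (−35.8%) beyond 50 kb.

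Whole regions followed the same order. Regions that touched no constant H3K4me3 carried 71.3% of the difference, with 115.2, 120.5 and 118.9 Mb in untreated cells and 87.6, 88.9 and 83.2 Mb after maltonis. Within this set, the differences were −42.3% at 5 to 10 kb, −47.5% at 10 to 20 kb and −54.4% at 20 to 50 kb by the list's own width. At 50 kb and over, where this set covered under 1 Mb per library, the difference was −5.13% with overlap, and at 1 to 2 kb it was 107%. Regions that touched constant H3K4me3 carried 28.7%. Those of 5 to 10 kb covered slightly more after maltonis, 30.4, 29.6 and 29.3 Mb against 31.9, 31.1 and 31.5 Mb, whereas those of 20 to 50 kb covered 19.9, 23.7 and 22.8 Mb against 15.1, 14.6 and 12.4 Mb. Own-list widths are subject to the shift between classes described above.

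The median distance from constant H3K4me3 of windows called in the 3 untreated libraries only was 31862 bp, and 76.8% lay more than 10 kb away. Windows called only in the maltonis libraries had a median distance of 17011 bp and 62.5% beyond 10 kb. Windows called in all 6 libraries had a median distance of 3298 bp and 35.9% beyond 10 kb, and windows of any other pattern, 56.5% of all called windows, had 19449 bp and 65.9%. The untreated-only windows were thus farther away than each of the other sets. H3K9me3, a mark of silent chromatin, had been called at 11.4% of the untreated-only windows and 15.5% of the maltonis-only windows. It had been called at 16.5% of the windows kept and at 10.4% of those of any other pattern. Sequence without H3K9me3 held 90.1% of the difference, and it made up 191.1 of the mean 221.5 Mb covered in untreated cells. Covered length differed by −20.9% there and by −14.5% where H3K9me3 was called.

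Reads in shared regions were compared with edgeR's quasi-likelihood test, with changes called where the false discovery rate (FDR) did not exceed 0.01 and the log2 fold change was 0.58 or more in either direction. Among the 19504 regions tested, reads rose in 1570 (8.05%) and fell in 3804 (19.5%). Reads were counted over the bases called in each library, so a shorter call alone lowers the count. With the called length as an offset, reads rose in 425 (2.18%) and fell in 900 (4.61%). With the offset and library scaling on reads, which moved the median of all regions to 0.16 on the log2 scale, 1126 rose and 445 fell. The balance of gains and losses per called base thus turned with the scaling.

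The calls were distributed by density and position as the lengths were. Reads fell in 27.3% of the shared regions with 25 to 50 reads per kb, in 29.6% of those with 50 to 100, in 5.38% of those with 100 to 200 and in 1.29% of those with 200 and over. They rose in 3.26%, 9.08%, 10.3% and 9.73% of the same classes. By mean width, the share that fell went from 24.7% at 2 to 5 kb to 3.24% at 50 kb and over, the opposite order to that of shorter called length. Of the regions touching constant H3K4me3, reads rose in 9.14% and fell in 9.20%. Of those that did not touch it, reads rose in 6.79% and fell in 31.5%. With the length offset these shares were smaller, at 2.40% up and 3.02% down where H3K4me3 was touched and 1.93% up and 6.47% down where it was not. The order by density also differed with the offset, with falls in 1.84% of regions at 25 to 50 reads per kb and in 9.27% at 50 to 100.

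Named shared regions were those with the largest differences in called length or pieces among regions whose conditions did not overlap. Their lengths, pieces and reads are therefore a description. Reads were summed over the called bases, so the fold changes and FDR values of these regions are not independent of the choice. The largest loss was on chromosome 7 from 127695601 to 127795800. Called length was 88000, 91800 and 94600 bp in untreated cells and 43600, 52000 and 45400 bp after maltonis, in 5 to 9 pieces in either condition. Reads there fell by 0.66 on the log2 scale (SE 0.03, edgeR FDR 1.9e-07), but with called length as an offset the log2 fold change was 0.14 (edgeR FDR 0.081) and was not called. The lower count thus came with the shorter call.

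On chromosome 6 from 34978001 to 35066400, called length was 77400, 82400 and 86600 bp without and 44600, 38400 and 39600 bp with maltonis. Reads were 9282, 9825 and 10018 against 3982, 4418 and 4180. They fell by 1.17 on the log2 scale (SE 0.02, edgeR FDR 2.0e-09). With the length offset the value was −0.32 (edgeR FDR 0.0021), under the limit of size. H3K4me3 was called in all 6 libraries somewhere in this region. Untreated calls covered its right part almost without interruption, and maltonis calls left only scattered pieces there.

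A further loss, on chromosome 7 from 2631801 to 2705400, had 63800, 57600 and 62000 bp in untreated cells against 27800, 24200 and 27600 bp. The region on chromosome 11 from 122533001 to 122631400 had 95400, 92600 and 94600 bp in 4 or 5 pieces against 63200, 59800 and 56600 bp in 8 to 11 pieces, and its log2 change in reads was −0.94, or −0.44 with the length offset. It is the one of the 5 largest losses that did not overlap constant H3K4me3, which was 5134 bp away. The region was not free of that mark, since all 3 untreated and all 3 maltonis H3K4me3 libraries had a call somewhere in it.

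The fifth loss, on chromosome 8 from 128781601 to 129035600, was also the region with the largest gain in pieces. It is 254000 bp wide, and untreated cells had 240000, 243800 and 250200 bp in 13, 11 and 7 pieces. After maltonis it had 202200, 223400 and 206400 bp in 19, 23 and 28 pieces. Reads were 21421, 22579 and 22611 against 15561, 18997 and 17508. The fitted log2 change of −0.31 had an SE of 0.02 and an edgeR FDR of 3.7e-06, and did not reach the limit of size. Pieces were found along the whole domain in both conditions, with more and longer gaps between them after maltonis.

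Other regions with more pieces were on chromosome 7 from 138725801 to 138814000, with 4, 4 and 2 pieces against 10, 11 and 12, and on chromosome 12 from 26486401 to 26583400, with 5, 7 and 6 against 11, 14 and 14. On chromosome 4 from 1831201 to 1947800 there were 5, 10 and 8 pieces without and 11, 11 and 19 with maltonis. On chromosome 7 from 27760001 to 27837000 the pieces went from 4, 6 and 4 to 10, 11 and 10, with reads of 5602, 5807 and 5866 against 5085, 5799 and 5369. The reads of this last region overlapped between the conditions, while its pieces did not.

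**Figure D5:**
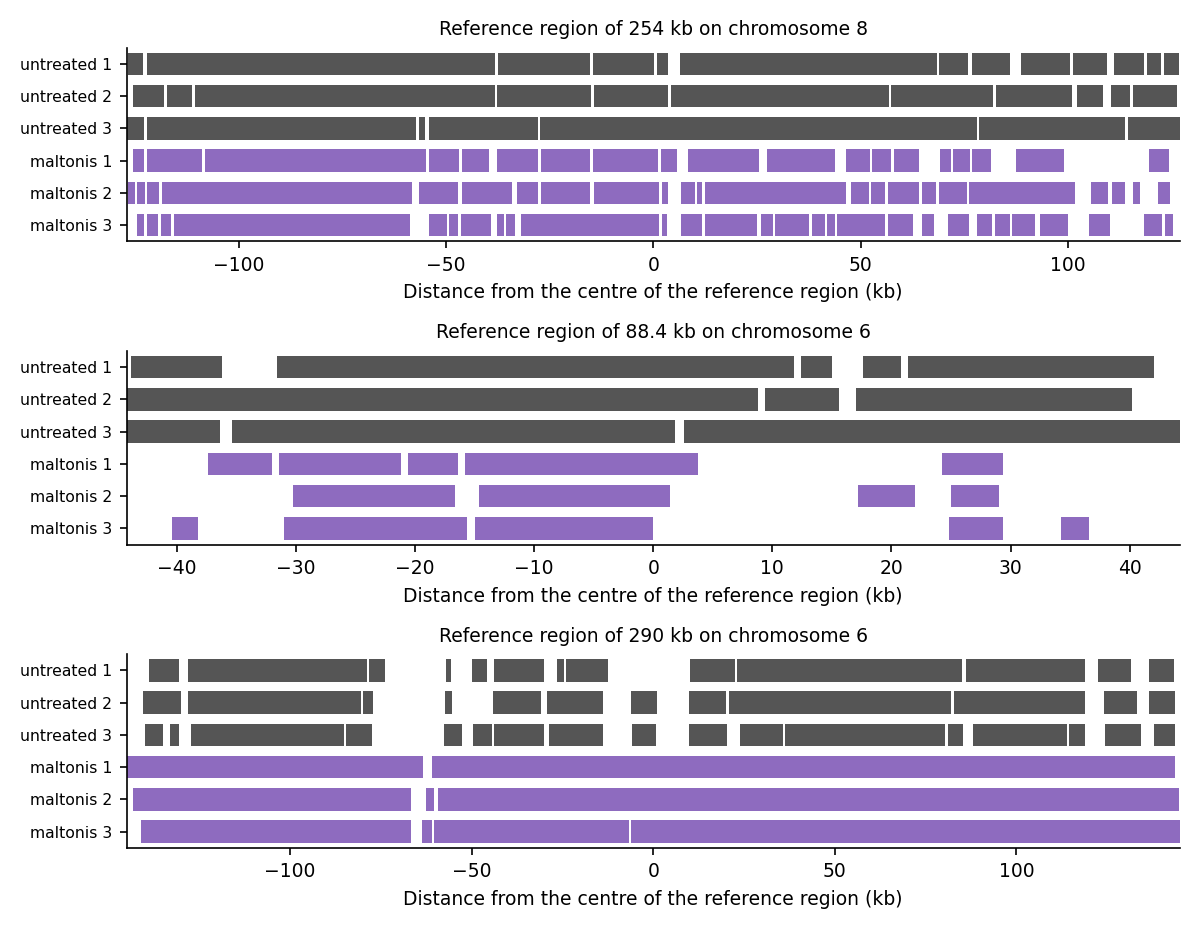
Called H3K27ac pieces of each library in 3 reference regions, drawn to scale against distance in kb from the centre of the region. Top, chromosome 8: 7 to 13 pieces in untreated and 19 to 28 in maltonis libraries. Middle, chromosome 6: 77400 to 86600 bp called without and 38400 to 44600 bp with maltonis. Bottom, chromosome 6: 12 to 17 pieces without and 2 to 4 with maltonis.

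The largest gain was on chromosome 6 from 25999401 to 26289400, which also held the most reads of all shared regions. Called length was 218400, 222600 and 218400 bp in untreated cells and 286200, 283000 and 281600 bp after maltonis, in 13, 12 and 17 pieces against 2, 3 and 4. Reads were 33386, 34275 and 33851 against 67939, 77668 and 72980. Reads rose by 1.15 on the log2 scale (SE 0.01, edgeR FDR 4.9e-11), and by 0.62 with the length offset, so both the length and the density were higher.

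A second gain of the same kind was on chromosome 6 from 27752801 to 27874400. It had 92400, 94000 and 99200 bp in 7 to 9 pieces without and 121400, 117000 and 117000 bp in 1 or 2 pieces with maltonis, and a log2 fold change of 1.18. On chromosome 1 from 149847801 to 149891600, called length was 14800, 20400 and 16800 bp against 42400, 42600 and 40600 bp. Its log2 fold change of 1.44 came with the longer call and was −0.02 with the length offset. As background, the short arm of chromosome 6 carries the largest cluster of replication-dependent histone genes, and whether these regions overlap it was not analysed here.

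The other two gains lay far from H3K4me3. The region on chromosome 20 from 50022601 to 50072200 had 33800, 22800 and 16800 bp in untreated cells and 42600, 46000 and 43400 bp after maltonis. A region on chromosome 15 from 50292001 to 50335800 had 17800, 10400 and 22000 bp against 40400, 36000 and 29800 bp. Constant H3K4me3 was 85394 bp and 64435 bp away, H3K9me3 was called in none of its libraries in the former and in all 6 in the latter, and reads were sparse, at no more than 1975 in any library. These gains differ from those on chromosome 6 in their low read number.

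Some regions were called in 1 condition only. The widest with no maltonis call were on chromosome 11 from 45473801 to 45497200 (17400, 20600 and 16400 bp in untreated cells), on chromosome 3 from 15085001 to 15103000 (13000, 15000 and 10200 bp) and on chromosome 5 from 149582601 to 149598400 (12000, 12800 and 12200 bp). The first held 1690, 1773 and 1625 reads and had H3K4me3 calls in all 3 untreated and no maltonis libraries. The widest with no untreated call were on chromosome 10 from 90166801 to 90179400 (10800, 6800 and 10200 bp after maltonis) and from 90129001 to 90138000 (8200, 9000 and 7400 bp), and on chromosome 16 from 11057601 to 11067200 (8200, 8200 and 7600 bp). A list holds no reads outside its regions, so no fold can be given for these 6 regions. The treated-only regions held 250 to 400 reads per library, and the other two untreated-only regions were similarly sparse, with 293 to 421 reads.

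The difference in covered length was spread over the genome. It had the same direction in each of the 22 autosomes, with no overlap of the conditions in any. It was smallest on chromosome 19 (−8.88%) and largest on chromosome 21 (−25.1%), and ranged from −17.0% to −24.6% on the others.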

How the data were processed

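The authors performed ChIP-seq with single-end reads. Per the labels, BWA, SAMtools, MACS2, SICER and the build hg19 were used, and the study's methods name epic2 for broad marks. Versions and caller parameters are not given in the sources used here. Each deposited H3K27ac list gives region starts and ends, a read count that is not normalised (counts), and an island score, per replicate. H3K4me3 and H3K9me3 lists were used for positions only, and no sequencing depth outside the regions was used. Samples were grouped by title. The members and lists were chosen with earlier results of these data known.

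Widths, densities, reference regions, gaps and distances were computed in Python 3.11.15 with numpy 2.4.6 and pandas 2.3.3. Neighbouring regions of a list were at least 600 bp apart. Library values were compared by exact two-sided permutation over the 20 assignments of 6 libraries, also in Python. Counts summed per shared region were tested with edgeR 4.0.16 (TMM, quasi-likelihood, Benjamini-Hochberg) in R 4.3.3, with DESeq2 1.42.0 as an alternative, and the scripts were tested on simulated data. The named regions were the 5 largest mean losses, gains and increases in pieces among shared regions without overlap of the conditions, the 3 widest regions called in 1 condition only in each direction, and the region with the most reads. Regions are not replicates. No sequence is shown, since no genome of the build was used.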

Additional observations from a re-analysis of the deposited data

How the results depend on the processing

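Island scores, read floors and boundaries were set in each list separately, total depth was not used, and edges are resolved to 200 bp. The difference in covered length kept its direction and its separation under every alternative run, from −37.3 Mb in the strongest 75% of regions to −53.9 Mb above the common lowest score, with −39.2 Mb at equal numbers of regions and, chosen after seeing the data, −39.3 Mb at 25 or more scaled reads per kb. Leaving out each library gave −47.8 to −40.4 Mb. The same held for regions of at least 10 kb (−34.0 to −25.6 Mb without a library), outer span, gaps and sequence more than 10 kb from constant H3K4me3 (−36.7 to −32.3 Mb).

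The remaining results depended on a setting, and the cause was not tested. Median width differed by −933 bp in the strongest 75% and by −333 bp above the common lowest score, with overlap in both. The number of regions differed by −5806 above that score and by −2005 without the third maltonis library, both without overlap (range without a library −2005 to −312). Pieces per 100 differed by 3.04 above that score and by 10.1 with the reference merged within 1000 bp (8.01 to 13.6 without a library), and the share of the difference in shared regions was 53.1% and 68.3%. At 100 or more reads per kb, the difference ran from −1.81 Mb without the second maltonis library, through −0.458 Mb without the first untreated library, to 2.66 Mb, and was 4.22 Mb without overlap when scaled. Within 2 kb of H3K4me3 it ran from −1.90 to −0.929 Mb, and was −4.25 Mb with H3K4me3 from 2 of 3 libraries. Regions under a limit of 5 kb in place of 10 kb differed by 1.21 Mb, a reversal, with overlap.

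Changed read counts numbered 1325 (425 up, 900 down) with the length offset, 1571 (445 down) with the offset scaled on reads, and 124 (40 up, 84 down) in the 2023 regions of similar called length in all libraries. DESeq2 called 1690 up and 4031 down, and edgeR without TMM 1329 and 4013. Leaving out each library gave 4944 to 5197 calls. Same-numbered replicates did not deviate together (correlations 0.005, 0.032 and 0.002), and the correlations between other numbers ran from −0.037 to 0.031. These values cannot show whether same-numbered replicates were handled together. The replicate block gave 5234 calls (1531 up, 3703 down) against 5374, and left each library difference as it was, −44.4 Mb for covered length, where its smallest possible p is 0.25.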

Other observations

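The first called H3K27ac base was position 10001 on chromosomes 1 and 18 in all 3 maltonis libraries and also on chromosome 4 in the third. Counted per library, this gave 2, 2 and 3 autosomes after maltonis and 0 in each untreated library. On chromosome 1, untreated calls started at position 243401 in all 3 libraries.

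By island score, the covered length differed least among the weakest and the strongest regions. Regions under a score of 100 covered 46.3, 45.1 and 44.4 Mb in untreated cells and 39.6, 41.2 and 39.9 Mb after maltonis (−11.1%). Those of 3000 and over covered 100.9, 107.5 and 106.0 Mb against 92.0, 91.9 and 85.2 Mb (−14.4%). The 3 classes between them differed by −33.0% to −34.5%, and no class overlapped between the conditions.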
